A study of Mus musculus with 12 samples.

Results

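The 9 genes described here, Gata3, Stat6, Il4ra, Il17rb, Il1r1, Il1r2, Pparg, Epas1 and Hif1a, are regulators and receptors that are associated with type 2 immunity and with regulatory T cells (Treg) resident in tissues. They were chosen by symbol, as all probe sets annotated to 1 of these genes alone, and they are 9 of 22180 genes with such a probe set. All members except Gata3 and Hif1a had 1 probe set each. Gata3 and Hif1a had 2 each, and 2 further probe sets shared with other genes were not used.

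The Treg were sorted by flow cytometry from spleens of DEREG mice, and their RNA was hybridized to Affymetrix mouse gene arrays. The mice had been sensitized to and challenged with ovalbumin, a model of allergic airways disease. DEREG mice express a diphtheria toxin receptor fused to green fluorescent protein from a transgene driven by Foxp3 control sequences, so that diphtheria toxin (DTx) removes cells that express it. The eTreg group (endogenous Treg) came from mice given human serum albumin at 2 g/kg as control protein and no DTx. The e_iTreg group (endogenous and induced Treg mixed) came from mice given intravenous immunoglobulin (IVIg), pooled human IgG, at 2 g/kg and no DTx. The iTreg group (IVIg-induced Treg) came from mice given DTx at 40 ng/g to deplete endogenous Treg and then IVIg at 2 g/kg. Each group had 4 arrays. All mice carried the transgene and had the allergen. The growth protocol is worded alike for all samples and places DTx before either protein, so the use of DTx follows the series design. No group given DTx with albumin was analysed here, so the contributions of DTx and IVIg to a difference between iTreg and eTreg cannot be told apart. The age and strain of the mice, the sort gate and any pooling of animals do not appear in the labels.

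Interleukin-4 and interleukin-13 signal through the receptor chain encoded by Il4ra to the transcription factor STAT6, which in helper T cells favours GATA3, the lineage regulator of type 2 cells. Part of the Treg pool in barrier and fat tissue expresses GATA3 and PPAR-gamma, a nuclear receptor that binds fatty acids, and responds to alarmins such as interleukin-33 and interleukin-25. HIF-1-alpha and HIF-2-alpha (Epas1) are oxygen-regulated subunits of hypoxia-inducible factor (HIF), which pair with ARNT and drive glycolytic and other hypoxia genes. Their regulation by oxygen acts mainly on the protein, so that transcript levels report only part of it.

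Levels below are log2 expression values on the deposited scale, in which 1 unit is a 2-fold step, and differences are log2 differences ± SE from limma with n = 4 arrays per group. A difference passed where the Benjamini-Hochberg adjusted p over all 23521 probe sets with 1 gene symbol was under 0.05. Probe sets of different genes bind with different strength, so levels are compared only within a gene. In these sorted bulk samples a change in the share of cells that express a gene and a change per cell cannot be told apart.

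Hif1a, Epas1, Il1r1 and Pparg were higher in iTreg than in at least 1 other group, and no member passed as lower. Against eTreg, 3 of 9 members passed, all higher, where 5.36% of all tested probe sets passed as higher, 4.63% as lower and 9.99% in either direction. Against e_iTreg, 4 of 9 passed, all higher, where 6.49% of probe sets passed as higher, 4.75% as lower and 11.2% in either direction. Between e_iTreg and eTreg 0 of 9 passed, and 0% of all probe sets passed, while 7.01% had an unadjusted p under 0.05 in limma. The median difference of the 9 members was 0.37 in iTreg minus eTreg, 0.30 in iTreg minus e_iTreg and 0.06 in e_iTreg minus eTreg, beside -0.01, -0.07 and 0.03 over all probe sets tested. All 4 iTreg arrays lay above all eTreg arrays for Hif1a and Il1r1, as for 6.9% of probe sets, and above all e_iTreg arrays for Hif1a and Pparg, as for 7.57%. No member had all iTreg arrays below those of eTreg or e_iTreg, as 7.82% and 9% of probe sets did. No member separated e_iTreg from eTreg, where 2.63% of probe sets were higher and 1.66% lower without overlap. Both comparisons with iTreg use the same 4 iTreg arrays.

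**Figure D1:**
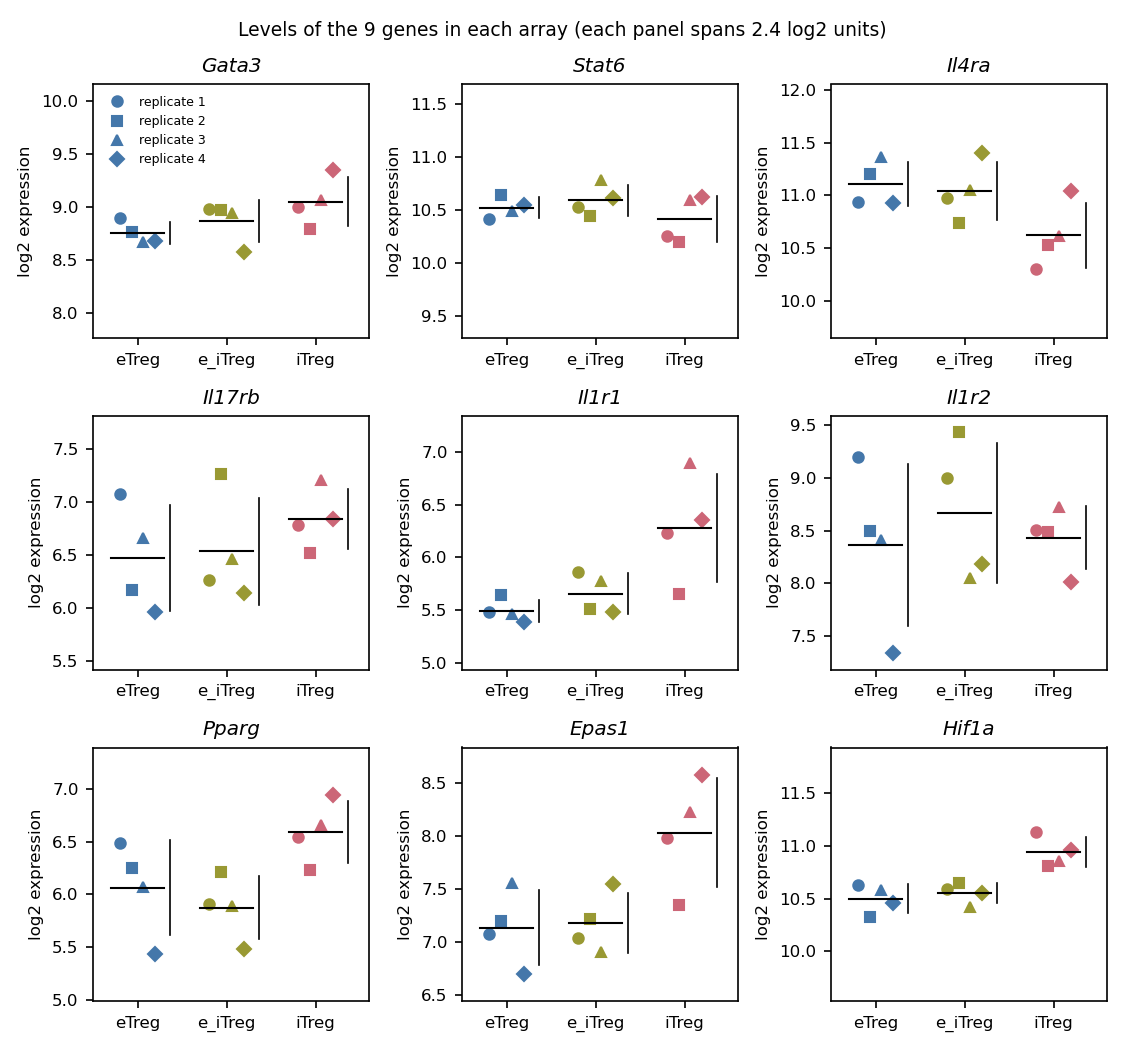
Log2 expression of the 9 genes (vertical axis) in every array, by group (horizontal axis), with marker shape giving the replicate, a horizontal bar the group mean and a vertical line the mean ± SD (n = 4). The 4 iTreg arrays lie above all other arrays for Hif1a, and 3 of 4 do so for Epas1, while the groups overlap widely for Il1r2.

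The arrays of the whole series were alike in scale, with array medians between 6.28 and 6.50. The Treg markers Foxp3, Cd4 and Il2ra were bright in every group, with group means of Foxp3 at 12.46, 12.30 and 12.17 in eTreg, e_iTreg and iTreg. The mean of 16 Treg identity markers was 10.79 to 10.99 in eTreg, 10.75 to 10.95 in e_iTreg and 10.59 to 10.81 in iTreg. Of these markers 2 passed as higher and 4 as lower in iTreg in each comparison. Markers of other cells varied between arrays. The mean of 17 measured B cell markers lay between 6.35 and 8.42 in eTreg, between 6.33 and 8.37 in e_iTreg and between 7.46 and 7.93 in iTreg, and it was lowest in eTreg replicates 3 and 4 and e_iTreg replicate 4. iTreg replicate 4 stood apart in plasma cell markers (9.57 against 7.87 to 8.23 in the other iTreg arrays) and in markers of monocytes, macrophages and dendritic cells (8.06 against 7.01 to 7.16). Xist and the mean of 3 Y-linked genes were both above log2 6 in 9 arrays, and 3 arrays (eTreg replicate 3, e_iTreg replicate 4 and iTreg replicate 4) had only 1 of these signals. The mean of 16 markers of CD8 T and NK cells was higher in every iTreg array (7.16 to 7.58) than in eTreg (6.47 to 7.07) and e_iTreg (6.48 to 7.12), with 4 genes higher and 0 lower against eTreg and 4 higher and 1 lower against e_iTreg. The cell cycle list moved with iTreg as well, with 28 of 29 measured genes higher than in eTreg, 27 higher than in e_iTreg and list means of 7.26 to 8.78 in eTreg, 7.36 to 8.86 in e_iTreg and at least 9.23 in iTreg. The part of the CD8 T and NK cell and cell cycle lists in the results below was not tested.

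RefSeq's GRCm38.p6 table gave the sequence before the transcription start for 8 of the 9 members, all except Epas1, with 11 start sites. The 250 bases before the start are shown for the members that passed and have an entry with a match, and for Il1r2 as a receptor of the same ligands that did not pass. Capitals mark the core of the HIF response element, ACGTG or GCGTG on either strand, with overlapping matches merged. All 5 run 5′ to 3′ on the plus strand.
Hif1a, chr12:73907617-73907866: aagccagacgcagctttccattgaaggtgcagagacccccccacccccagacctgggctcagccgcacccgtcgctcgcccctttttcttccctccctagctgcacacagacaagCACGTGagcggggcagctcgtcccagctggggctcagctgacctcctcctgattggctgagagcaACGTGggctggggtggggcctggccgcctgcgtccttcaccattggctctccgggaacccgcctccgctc
Il1r1, upstream start, chr1:40224830-40225079: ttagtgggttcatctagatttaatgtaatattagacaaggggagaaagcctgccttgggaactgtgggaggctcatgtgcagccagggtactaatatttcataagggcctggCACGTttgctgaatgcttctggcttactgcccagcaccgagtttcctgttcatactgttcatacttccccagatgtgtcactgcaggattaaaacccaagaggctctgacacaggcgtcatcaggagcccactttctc
Il1r1, downstream start, chr1:40266336-40266585: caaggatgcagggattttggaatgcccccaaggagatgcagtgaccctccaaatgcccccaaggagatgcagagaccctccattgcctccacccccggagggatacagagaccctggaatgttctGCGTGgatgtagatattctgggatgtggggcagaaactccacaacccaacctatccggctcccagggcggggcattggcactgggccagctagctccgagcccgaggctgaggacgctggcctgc
Pparg, upstream start, chr6:115360894-115361143: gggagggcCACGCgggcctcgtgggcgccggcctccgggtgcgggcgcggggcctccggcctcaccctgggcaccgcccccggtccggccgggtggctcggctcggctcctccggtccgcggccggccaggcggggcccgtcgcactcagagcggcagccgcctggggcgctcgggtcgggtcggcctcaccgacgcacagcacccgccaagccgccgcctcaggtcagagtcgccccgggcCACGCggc
Il1r2, chr1:40085843-40086092: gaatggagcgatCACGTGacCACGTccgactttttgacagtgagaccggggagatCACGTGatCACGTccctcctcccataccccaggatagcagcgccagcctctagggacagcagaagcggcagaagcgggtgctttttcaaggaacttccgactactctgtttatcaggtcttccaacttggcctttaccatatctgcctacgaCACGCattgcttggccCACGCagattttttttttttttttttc

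The HIF core was found in 8 of the 11 member windows and in 38.6% of 32817 windows of the same length before RefSeq starts. Il1r2 held 8 matches, Hif1a 3 and the upstream start of Pparg 2, while the other 2 starts of Pparg and the start of Gata3 held 0. The STAT6 motif, TTC and GAA with 4 bases between them, was found in 1 member window, that of Hif1a, 235 bases before the start, and in 5.85% of all windows. The GATA motifs AGATAA or TGATAA, on either strand, were found in the Il1r2 window alone among members and in 16.6% of all windows. The PPAR motif, AGGTCA repeated after 1 base on either strand, was in none of the member windows and in 0.0335% of all windows. A match is a run of letters and not a bound site, and these arrays did not measure binding.

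Among the hypoxia-inducible factors, the alpha subunits Hif1a and Epas1 were higher in iTreg, and the alpha subunit Hif3a, no member of the set, was lower than in e_iTreg. Hif1a was at 10.63, 10.33, 10.58 and 10.46 in eTreg replicates 1 to 4, at 10.59, 10.65, 10.42 and 10.55 in e_iTreg and at 11.13, 10.81, 10.86 and 10.96 in iTreg. All 4 iTreg arrays lay above all 8 others, and the eTreg and e_iTreg arrays overlapped. Hif1a rose by 0.44 ± 0.10 against eTreg (1.36-fold, 95% interval 0.22 to 0.66, adjusted p = 0.0125 in limma) and by 0.39 ± 0.10 against e_iTreg (1.31-fold, 0.17 to 0.61, adjusted p = 0.0239). Between e_iTreg and eTreg it differed by 0.05 ± 0.10. The call against eTreg held in all 12 fits that left out 1 array, with adjusted p up to 0.0490. The call against e_iTreg was lost without e_iTreg replicate 3 (adjusted p = 0.065), e_iTreg replicate 4 (0.0573), iTreg replicate 1 (0.0779) or iTreg replicate 4 (0.0523), with differences of 0.32 to 0.39 in those fits.

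Epas1, which encodes HIF-2-alpha, stood at 7.07, 7.20, 7.56 and 6.70 in eTreg and at 7.04, 7.22, 6.90 and 7.55 in e_iTreg. In iTreg it stood at 7.98, 7.35, 8.23 and 8.58. All iTreg arrays but replicate 2 were above every other array, and replicate 2 lay within the range of the other groups. Epas1 rose by 0.90 ± 0.23 against eTreg (1.87-fold, 95% interval 0.41 to 1.40, adjusted p = 0.0218) and by 0.86 ± 0.23 against e_iTreg (1.81-fold, 0.36 to 1.35, adjusted p = 0.0272). The e_iTreg and eTreg groups differed by 0.05 ± 0.23. The array with the highest value, iTreg replicate 4, is the one with the highest plasma cell and macrophage markers, and without it the difference was 0.72 against eTreg (adjusted p = 0.0611) and 0.68 against e_iTreg (0.0756). The call against eTreg was also lost without eTreg replicate 4 (0.76, adjusted p = 0.0718) or iTreg replicate 3 (0.84, 0.0623), and that against e_iTreg without e_iTreg replicate 1 (0.81, 0.0733), e_iTreg replicate 3 (0.77, 0.0886), iTreg replicate 1 (0.88, 0.0564) or iTreg replicate 3 (0.79, 0.0749). Epas1 is strongly expressed in endothelial cells, and of 17 measured endothelial and stromal markers 0 were higher and 1 lower in iTreg than in eTreg, with list means of 6.31 to 6.37 in eTreg, 6.32 to 6.64 in e_iTreg and 6.27 to 6.36 in iTreg. The endothelial gene Cdh5 had means of 5.97, 6.13 and 6.40 in eTreg, e_iTreg and iTreg. Its iTreg replicates 1, 2 and 3 (6.74, 6.51 and 6.36) lay above every eTreg array (up to 6.27). In e_iTreg Cdh5 reached 6.64. Kdr had means of 6.34, 6.28 and 6.37. The part of endothelial transcripts in the Epas1 difference was not tested.

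A second probe set annotated to Hif1a, with a mean below the median of all tested probe sets, did not follow the first. It was at 5.73 ± 0.16, 5.98 ± 0.16 and 5.69 ± 0.18 (SD) in eTreg, e_iTreg and iTreg, and iTreg minus e_iTreg was -0.29 ± 0.12 (adjusted p = 0.146). Of 36 probe sets that flank it in the order of IDs and have a gene of known strand, 35 belong to genes on the strand opposite to Hif1a. Around the brighter probe set all 34 such neighbours lie on the strand of Hif1a. Which transcript the dim probe set reads was not tested.

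Of 16 other measured HIF subunits and regulators, 2 rose and 2 fell against eTreg, and 2 rose and 1 fell against e_iTreg. Hif3a encodes HIF-3-alpha and was singled out after its values were seen. It fell by 0.38 ± 0.12 against e_iTreg (adjusted p = 0.04904), and its difference from eTreg was -0.32 ± 0.12 (0.113), with all 4 iTreg arrays below all eTreg arrays. The Hif3a call was lost in 10 of 12 fits without 1 array (adjusted p up to 0.137), with the replicate block (0.0677) and with median centring (-0.29, 0.101). The elongin subunits Elob and Eloc, which join VHL in the ubiquitin ligase that removes HIF-alpha proteins, rose by 0.57 ± 0.12 (adjusted p = 0.00743) and 0.42 ± 0.13 (0.0472). Against e_iTreg they rose by 0.86 ± 0.12 and 0.66 ± 0.13. Vhl itself differed by 0.26 ± 0.09 from eTreg (adjusted p = 0.0939) and by 0.13 ± 0.09 from e_iTreg (0.409), and passed in neither comparison. ARNT is the partner of the alpha subunits in DNA binding, and Arnt fell by 0.41 ± 0.12 against eTreg (adjusted p = 0.0407), while its difference from e_iTreg was -0.16 ± 0.12 (0.401). The coactivator Crebbp fell by 0.42 ± 0.13 against eTreg (0.0473). The calls for Arnt and Crebbp each were lost in 10 of 12 fits without 1 array (adjusted p up to 0.106 and 0.109) and that for Eloc against eTreg in 9 (up to 0.156). Both calls for Elob and that for Eloc against e_iTreg held in all 12.

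HIF target genes moved both ways. Of 30 measured targets 4 rose and 2 fell against eTreg and 6 rose and 1 fell against e_iTreg, with a median difference of 0.01 in both comparisons. The genes with the smallest p were glycolytic enzymes, with Tpi1 higher by 1.29 ± 0.17, Pgam1 by 0.91 ± 0.13 and Pgk1 by 0.91 ± 0.16 against eTreg, and by 1.30 ± 0.17, 0.86 ± 0.13 and 1.12 ± 0.16 against e_iTreg. The histone demethylase Kdm3a fell by 0.52 ± 0.10 and Pdk1, a mitochondrial kinase that inhibits pyruvate dehydrogenase, by 0.49 ± 0.11 against eTreg (adjusted p = 0.00516 and 0.00827). The calls for the 3 enzymes in both comparisons, and those for Kdm3a and Pdk1 against eTreg, held in all 12 fits without 1 array. Among other genes of glucose use, Gapdh also rose against eTreg, by 0.44 ± 0.10 (adjusted p = 0.0119 in limma). The glucose transporter Slc2a1 (-0.05 ± 0.11) and the enzymes Pfkl (0.00 ± 0.11), Hk1 (0.09 ± 0.09), Hk2 (0.35 ± 0.13) and Ldha (0.27 ± 0.13) did not pass.

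**Figure D2:**
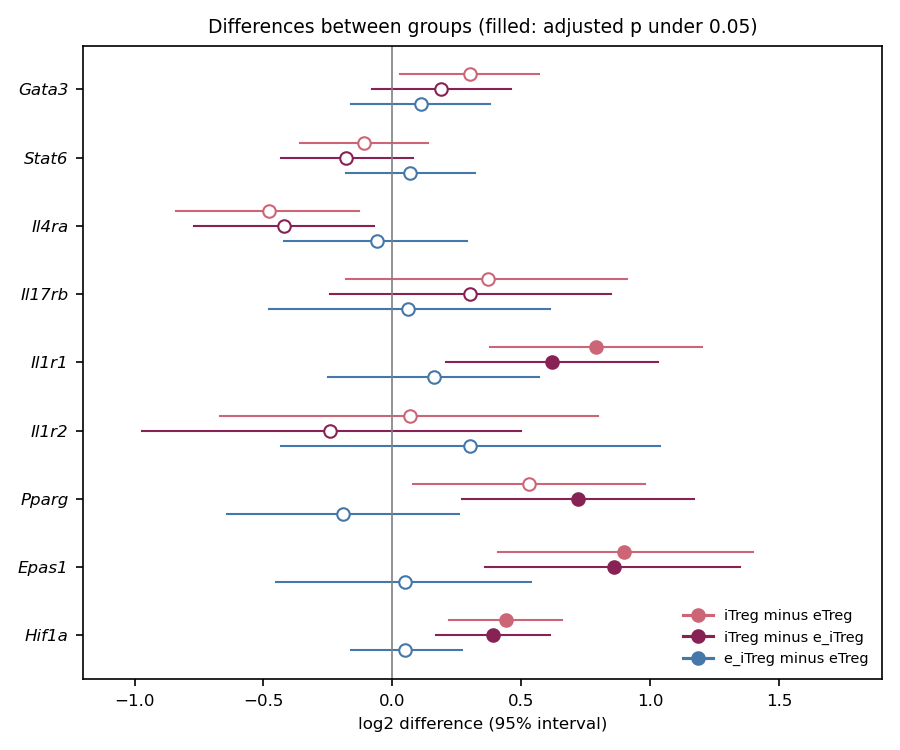
Log2 differences (horizontal axis) with 95% intervals for the 9 genes in the 3 comparisons, with filled points where adjusted p was under 0.05. Intervals of Hif1a, Epas1, Il1r1 and Pparg lie above 0 in both comparisons with iTreg, and those of Il4ra below 0. The Pparg point against eTreg and both Il4ra points are open. All 9 intervals of e_iTreg minus eTreg include 0.

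Of the receptors for interleukin-1, Il1r1 passed as higher in iTreg and Il1r2 did not pass, and the difference between the genes was not tested. Il1r1 encodes the signalling receptor, whereas Il1r2 encodes a decoy receptor that binds interleukin-1 and lacks the signalling domain. Il1r1 was at 5.48, 5.64, 5.46 and 5.39 in eTreg and at 5.86, 5.51, 5.78 and 5.48 in e_iTreg. In iTreg it was at 6.23, 5.65, 6.89 and 6.35, so that all 4 arrays lay above every eTreg array, replicate 2 only just, and 3 of 4 above every e_iTreg array. Il1r1 rose by 0.79 ± 0.19 against eTreg (1.72-fold, 95% interval 0.38 to 1.20, adjusted p = 0.0171) and by 0.62 ± 0.19 against e_iTreg (1.54-fold, 0.21 to 1.03, adjusted p = 0.04995). Its mean level is below the median of all tested probe sets, at the percentile 32.8, where RMA values can understate changes. The call against eTreg held in all 12 fits without 1 array (difference 0.58 to 1.0, adjusted p up to 0.0486). The call against e_iTreg was lost in 11 of 12 such fits, all but the fit without iTreg replicate 2, with adjusted p up to 0.129 and a lowest difference of 0.42 without iTreg replicate 3.

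Il1r2 was at 9.20, 8.50, 8.41 and 7.34 in eTreg, at 9.0, 9.43, 8.05 and 8.18 in e_iTreg and at 8.51, 8.49, 8.72 and 8.01 in iTreg. The iTreg arrays lay inside the eTreg range, and no group stood apart. The difference was 0.07 ± 0.35 against eTreg (95% interval -0.67 to 0.80, adjusted p = 0.952) and -0.24 ± 0.35 against e_iTreg (-0.97 to 0.50, adjusted p = 0.700), so that the 0.79 of Il1r1 against eTreg lies just inside the Il1r2 interval and the 0.62 against e_iTreg outside it. The sign of the first turned without eTreg replicate 4 (-0.27), the array with the lowest level.

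Il17rb encodes the chain that binds interleukin-25. It was at 7.08, 6.17, 6.66 and 5.96 in eTreg, at 6.26, 7.27, 6.46 and 6.14 in e_iTreg and at 6.78, 6.52, 7.21 and 6.84 in iTreg. The 3 groups overlapped, and the differences of 0.37 ± 0.26 against eTreg (95% interval -0.18 to 0.91, adjusted p = 0.479) and 0.30 ± 0.26 against e_iTreg (-0.24 to 0.85, adjusted p = 0.472) did not pass. Its partner chain Il17ra differed by -0.13 ± 0.12 from eTreg, and Il1rap, the accessory chain shared by the receptors for interleukin-1 and interleukin-33, by 0.10 ± 0.13. Neither passed.

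Of 21 other measured genes in this receptor family and its signalling path, 4 rose and 1 fell in each comparison with iTreg. The adaptor Myd88 rose by 0.38 ± 0.10 against eTreg (adjusted p = 0.0237) and by 0.46 ± 0.10 against e_iTreg (0.00871). Irak3, an inhibitory member of the kinase family below the receptors, fell by 0.55 ± 0.13 and by 0.58 ± 0.13 (adjusted p = 0.0157 and 0.0108). The interleukin-18 receptor chains Il18r1 and Il18rap rose by 0.77 ± 0.23 and 0.91 ± 0.27 against eTreg, and Casp1, the protease that matures interleukin-1-beta, by 0.59 ± 0.18 (adjusted p = 0.048, 0.046 and 0.0474). Leaving out 1 of 8, 7 and 8 arrays in turn ended these last 3 calls, with adjusted p up to 0.148, 0.139 and 0.147. The Myd88 call against eTreg was lost without any 1 of 5 arrays (up to 0.0737) and that of Irak3 without eTreg replicate 2 or iTreg replicate 1 (up to 0.057), while both calls against e_iTreg held in all 12 fits. The interleukin-33 receptor Il1rl1 had no probe set of its own in the annotation used and was not analysed here.

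Pparg was at 6.49, 6.25, 6.07 and 5.44 in eTreg and at 5.91, 6.21, 5.89 and 5.48 in e_iTreg. In iTreg it was at 6.54, 6.23, 6.66 and 6.94. All 4 iTreg arrays lay above the e_iTreg arrays, replicate 2 only just, and 3 of 4 above the eTreg arrays. Pparg rose by 0.72 ± 0.21 against e_iTreg (1.65-fold, 95% interval 0.27 to 1.17, adjusted p = 0.0387), and the difference of 0.53 ± 0.21 from eTreg did not pass (0.08 to 0.98, adjusted p = 0.143). The call was lost without e_iTreg replicate 1 (0.73, adjusted p = 0.0763), e_iTreg replicate 3 (0.73, 0.0851), e_iTreg replicate 4 (0.59, 0.116), iTreg replicate 1 (0.74, 0.0738), iTreg replicate 3 (0.70, 0.0875) or iTreg replicate 4 (0.60, 0.104). The difference from eTreg was 0.33 in the fit without eTreg replicate 4, against 0.53. The mean level of Pparg is below the median of all tested probe sets, at the percentile 42.1. Pparg is also a macrophage gene. Of 24 measured markers of monocytes, macrophages and dendritic cells 4 were higher and 0 lower in iTreg than in eTreg, and 5 higher and 1 lower than in e_iTreg, with list means of 6.58 to 6.99 in eTreg, 6.53 to 7.03 in e_iTreg and 7.01 to 8.06 in iTreg. The macrophage genes Adgre1 and Csf1r were at 8.29 and 8.99 in iTreg replicate 4 and at 6.09 to 6.49 and 6.55 to 7.0 in the other iTreg arrays, within or below their ranges in eTreg (6.21 to 6.63 and 6.24 to 7.21). Itgam, another marker of the list, was high in all 4 iTreg arrays, at 7.77 to 8.99 against 6.30 to 7.10 in eTreg and 5.85 to 7.29 in e_iTreg. With the mean of these markers as a covariate in the fit, the Pparg difference was 0.38 against e_iTreg (adjusted p = 0.274) and 0.14 against eTreg (0.820). That covariate was itself higher in iTreg, where its lowest array stood at 7.01 and the highest eTreg array at 6.99. With the same covariate Epas1 was at 0.68, Hif1a at 0.42 and Il1r1 at 0.70 against eTreg, with adjusted p = 0.215, 0.102 and 0.138.

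The calls were also fitted without the arrays that stood apart, a choice made after seeing the data. Without the 3 arrays that carried only 1 of the Xist and Y-linked signals, Epas1 passed against eTreg (0.86, adjusted p = 0.0316) and e_iTreg (0.80, 0.0468), and Il4ra passed as lower against eTreg (-0.54, 0.0438) but not against e_iTreg (-0.44, 0.0944). Hif1a was then at 0.46 against eTreg (adjusted p = 0.0695) and Il1r1 at 0.75 (0.101), and Pparg was at 0.47 against e_iTreg (0.264). Without eTreg replicates 3 and 4 and e_iTreg replicate 4, the arrays low in B cell markers, Hif1a was at 0.46, Epas1 at 0.90 and Il1r1 at 0.72 against eTreg (adjusted p = 0.116, 0.0945 and 0.184). Against e_iTreg Epas1 passed there (0.98, 0.0267), and Pparg was at 0.59 (0.0533). Hif1a and Il1r1 did not pass against e_iTreg in either fit. Without the arrays with 1 sex signal they were at 0.38 and 0.54 (adjusted p = 0.127 and 0.227 in limma). Without the arrays low in B cell markers they were at 0.39 and 0.56 (0.0882 and 0.164). The differences of Hif1a, Epas1 and Il1r1 were near those with all arrays, while that of Pparg from eTreg was 0.22 without the arrays low in B cell markers. Why calls were lost was not tested.

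Genes around PPAR-gamma moved both ways. Of 23 other measured partners and targets, 3 rose and 4 fell against eTreg and 2 rose and 3 fell against e_iTreg. The fatty acid binding protein Fabp5 rose by 1.18 ± 0.19 and 1.35 ± 0.19 and the lipid droplet protein Plin2 by 0.62 ± 0.12 and 0.51 ± 0.12 against eTreg and e_iTreg. The cholesterol exporters Abca1 and Abcg1 fell by 0.77 ± 0.17 and 0.60 ± 0.14 against eTreg (adjusted p = 0.00891 and 0.0135), and the coactivator Ppargc1b by 0.51 ± 0.10 (0.00565). Rxra, which encodes the obligate partner of PPAR-gamma, differed by 0.32 ± 0.14 from eTreg (adjusted p = 0.174). Of the calls against eTreg, that for Abcg1 was lost in 1 of 12 fits without 1 array, the fit without eTreg replicate 2 (adjusted p = 0.0502), and those for Fabp5, Plin2, Abca1 and Ppargc1b held in all 12. Against e_iTreg the Plin2 call was lost without e_iTreg replicate 1 (adjusted p = 0.0521).

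Il4ra, Stat6 and Gata3, the members of the interleukin-4 axis, did not pass in any comparison with all arrays. Il4ra was at 10.94, 11.20, 11.36 and 10.93 in eTreg, at 10.98, 10.74, 11.05 and 11.40 in e_iTreg and at 10.30, 10.53, 10.62 and 11.04 in iTreg. All iTreg arrays but replicate 4 lay below every array of the other groups, and replicate 4 lay among them. The differences were -0.48 ± 0.17 against eTreg (95% interval -0.84 to -0.13, adjusted p = 0.0860) and -0.42 ± 0.17 against e_iTreg (-0.77 to -0.07, adjusted p = 0.122). Without iTreg replicate 4 both passed as lower, at -0.62 (adjusted p = 0.0246) and -0.56 (0.0399), and it also passed against eTreg without the 3 arrays with 1 sex signal. Without iTreg replicate 4 Il4ra was the only member past the threshold against e_iTreg.

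Stat6 was at 10.41, 10.64, 10.49 and 10.55 in eTreg, at 10.53, 10.44, 10.78 and 10.61 in e_iTreg and at 10.25, 10.20, 10.59 and 10.62 in iTreg. The groups overlapped, with differences of -0.11 ± 0.12 against eTreg (95% interval -0.36 to 0.14, adjusted p = 0.698) and -0.18 ± 0.12 against e_iTreg (-0.43 to 0.08, adjusted p = 0.359). Of 16 other measured genes of the interleukin-4 and STAT6 path, 2 rose and 4 fell against eTreg. The cytokine Il4 rose by 1.04 ± 0.19 (from 5.39 to 6.43) and the AP-1 family factor Batf by 0.75 ± 0.17, while Irs2, a docking protein of the interleukin-4 receptor, fell by 0.98 ± 0.19 (adjusted p = 0.00315, 0.0126 and 0.00447). Against e_iTreg the differences of the 3 genes were 0.80 ± 0.19, 0.65 ± 0.17 and -1.16 ± 0.19, all past the threshold. Of these 6 calls only that for Batf against e_iTreg was lost in a fit without 1 array, in 4 of 12 (adjusted p up to 0.08). The mean level of Il4 is below the median of all tested probe sets, at the percentile 33. The cytokine genes Il13, Il5 and Il9 differed by 0.32 ± 0.12, -0.07 ± 0.10 and -0.13 ± 0.10 from eTreg and did not pass in either comparison with iTreg.

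Gata3 was at 8.90, 8.76, 8.67 and 8.68 in eTreg, at 8.98, 8.97, 8.94 and 8.57 in e_iTreg and at 9.0, 8.79, 9.07 and 9.35 in iTreg. Replicate 2 of iTreg lay within the eTreg range and the other 3 arrays just above both groups. The difference was 0.30 ± 0.13 against eTreg (95% interval 0.03 to 0.57, adjusted p = 0.177) and 0.19 ± 0.13 against e_iTreg (-0.08 to 0.46, adjusted p = 0.362), and without iTreg replicate 4, its highest array, 0.20 and 0.09. A second probe set named Gata3 was at 6.87 ± 0.18, 6.96 ± 0.09 and 6.75 ± 0.14 (SD) in eTreg, e_iTreg and iTreg, with -0.12 ± 0.11 and -0.21 ± 0.11 in iTreg against the others. Of its 22 flanking probe sets with a known strand 21 belong to genes on the strand opposite to Gata3, against 5 of 37 around the brighter probe set, and what it reads was not tested.

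Of 23 other measured GATA3 partners and type 2 helper genes, 5 rose and 2 fell against eTreg and 3 rose and 2 fell against e_iTreg. Runx3, a transcription factor that opposes GATA3 in helper cells, rose by 0.87 ± 0.13 and 0.66 ± 0.13 (adjusted p = 0.00137 and 0.00508). The chemokine receptor Ccr4, found on type 2 helper and skin-homing cells, rose by 1.66 ± 0.28 and 1.47 ± 0.28. The transcription factor Maf rose by 1.05 ± 0.23 against eTreg, and its difference of 0.64 ± 0.23 from e_iTreg did not pass (adjusted p = 0.0858). Lef1, a factor of resting T cells, fell by 0.54 ± 0.12 against eTreg. All of these calls held in the 12 fits without 1 array.

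Of 35 other measured tissue Treg genes, 14 rose and 1 fell against eTreg and 12 rose and 1 fell against e_iTreg, and with the members the list had a median difference of 0.47 and 0.44. Cxcr3, a chemokine receptor of type 1 responses, rose by 1.61 ± 0.21 against eTreg, the gut-homing receptor Gpr15 by 1.46 ± 0.23, the galectin Lgals1 by 1.85 ± 0.34 and the repressor Prdm1 by 1.04 ± 0.19. The corresponding rises against e_iTreg were 1.45 ± 0.21, 1.46 ± 0.23, 1.79 ± 0.34 and 0.94 ± 0.19. These 8 calls held in all 12 fits without 1 array. The genes named here were chosen for the smallest p, and with the members 22 of 37 measured genes did not pass against eTreg and 23 against e_iTreg. Klrg1, Ccr8 and Itgae, also measured, differed by 0.27 ± 0.40, -0.37 ± 0.30 and 0.47 ± 0.25 from eTreg and did not pass. The list was written with earlier results of these data known, so its count is a description.

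**Figure D3:**
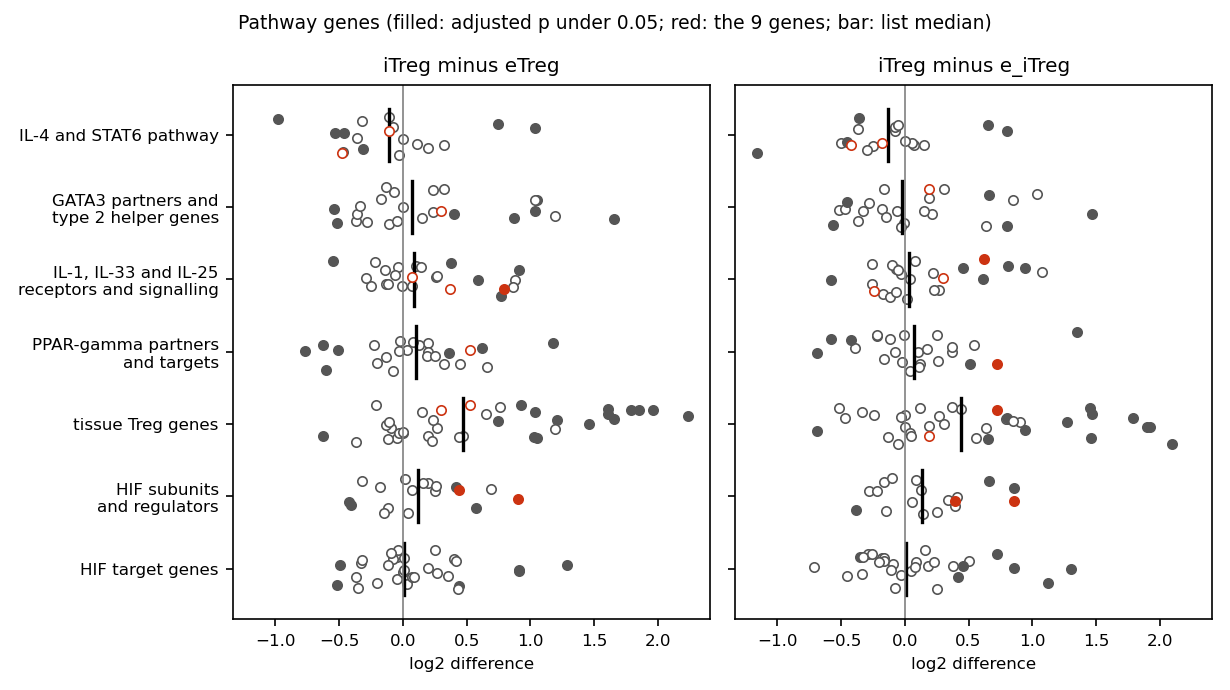
Log2 differences (horizontal axis) of the measured genes of 7 pathway lists (rows) in iTreg minus eTreg and iTreg minus e_iTreg. Each point is a gene, filled where adjusted p was under 0.05, red for the 9 members, and a black bar marks the list median, which is 0.47 and 0.44 for tissue Treg genes and 0.01 for HIF targets in both panels.

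Within the groups the members varied to different degrees. The gap between the highest and the lowest array was 1.86 for Il1r2, 1.12 for Il17rb and 1.05 for Pparg in eTreg, and 0.30, 0.25 and 0.23 for Hif1a, Il1r1 and Gata3. The widest gaps in iTreg were 1.24 for Il1r1 and 1.23 for Epas1, and that for Hif1a was 0.32. In eTreg replicate 1 was the highest and replicate 4 the lowest array for Il1r2, Il17rb and Pparg alike. In e_iTreg replicate 2 was the highest array for the same 3 genes, and replicate 4 the lowest for Il17rb and Pparg. The B cell marker mean was 8.42 and 6.37 in eTreg replicates 1 and 4 and 8.37 and 6.33 in e_iTreg replicates 2 and 4, and the cell cycle mean 8.78 and 7.26 and 8.86 and 7.36 in the same arrays. Their part in this order was not tested. With the B cell marker mean as a covariate in limma, Pparg was higher than e_iTreg by 0.70 (adjusted p = 0.00696), and Hif1a and Epas1 passed in both comparisons. Il1r1 then passed against eTreg (0.75, adjusted p = 0.0279) but not against e_iTreg (0.62, 0.0515).

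**Figure D4:**
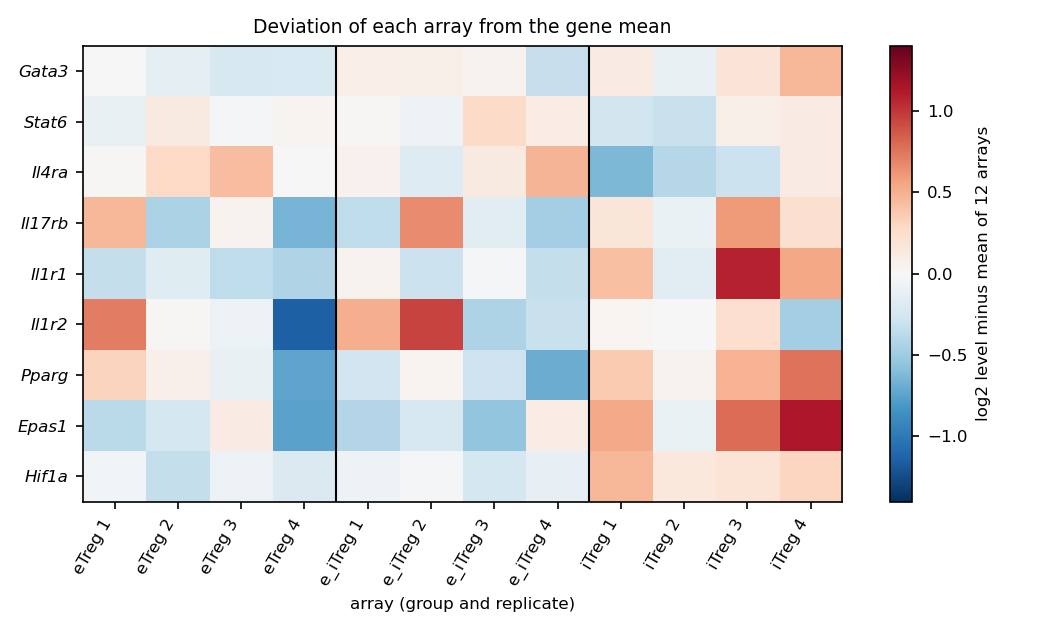
Log2 level of each gene (rows) in each array (columns, by group and replicate) minus the mean of that gene over the 12 arrays, in colour. Red cells of Epas1, Pparg and Hif1a gather in the iTreg columns, and Il1r2 is reddest in eTreg replicate 1 and e_iTreg replicate 2.

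For the members that passed, the genes with the most similar pattern were listed by Pearson correlation over the 12 arrays, among 10350 or 10351 genes with a mean above the median. For Hif1a they were Smpdl3b, Neil3 (r = 0.94 each) and Calr (0.93). For Epas1 they were Uso1 (0.94), Stt3a (0.91) and Gtf2f2 (0.90), and for Il1r1 Nup210, Mboat1 and F2rl2 (0.91 each). For Pparg they were Mospd3 (0.95), Unc119 (0.94) and Ctsb (0.93). All points share the 12 arrays, and a difference between iTreg and the other 8 arrays enters every one of these values.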

How the data were processed

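Treg from 12 samples in 3 groups were measured on Affymetrix mouse gene arrays after 2 rounds of amplification of 2 ng of RNA, per the labels' protocols. The deposited values are log2 expression per probe set, which the authors made with oligo and RMA (background correction, normalization between arrays and summary of probes), per the submitters' processing notes, with versions not given in the sources used here.

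Of 41345 rows, 23521 had exactly 1 gene symbol (22180 genes), 1814 had several and 16010 had none. Symbols were updated through RefSeq gene numbers (GRCm38.p6) for 23328 rows. One linear model over all 3 groups was fitted with limma 3.58.1 in R 4.3.3 (lmFit, eBayes, 9 residual and 5.78 prior degrees of freedom), two-sided, with Benjamini-Hochberg adjustment over the 23521 rows, and was tested on simulated data. For lists, the probe set with the highest mean represented a gene. The samples are biological replicates per the series design, p-values measure the spread between them, and the number of arrays limits precision. With both Xist and Y-linked signals above log2 6 in 9 arrays, a replicate may not be 1 mouse, and pooling was not tested.

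Named genes were the 9 members, their direct partners, and of each of 7 lists the 5 genes with the smallest p against eTreg and the 2 with the smallest p against e_iTreg (some are counted only), plus the 3 most similar genes of each member that passed. Hif3a was added after its values were seen. Members, lists and the rule were chosen with earlier results of these data known. Motifs were searched on both strands of 250 bases before RefSeq starts. Alternatives changed the normalization, filters, variance model, array weights, replicate block, threshold and the arrays used, and 4 of them were chosen after seeing the data.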

Additional observations from a re-analysis of the deposited data

Results flagged for a closer look

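In e_iTreg replicate 4 the Gata3 level was 8.57, against 8.94 for the nearest of the other 3 arrays, and it stood apart from its group.

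Among marker lists of other cells, 4 means stood apart from their group. In iTreg replicate 4 the mean of monocyte, macrophage and dendritic cell markers was 8.06 (nearest 7.16), that of neutrophil markers 7.42 (nearest 6.48) and that of mast cell, basophil and eosinophil markers 5.81 (nearest 5.43). In eTreg replicate 1 the last of these was 5.43 (nearest 5.27). With 33 groups of member values and 36 of marker means checked, chance alone flags about 1 group in 20.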

How the results depend on the processing

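Quantile normalization, median centring, 1 probe set per gene, a variance trend, array weights and the replicate number as a block left the same members past the threshold, 3 against eTreg (Epas1, Hif1a and Il1r1) and 4 against e_iTreg (these and Pparg), and the replicate block thus changed no member's call. The replicate numbers share only a number: deviations of same-numbered arrays correlated between -0.15 and 0.24 over probe sets, and not every pair was over 0.1. Against e_iTreg 2 members passed above the median (Il1r1 and Pparg are not in that set), 1 with all rows tested (Hif1a), and 0 to 4 without 1 array, against 2 to 3 for eTreg. Where a fold of at least 1.5 was required as well, Hif1a (1.36-fold against eTreg and 1.31-fold against e_iTreg) passed in neither comparison. Chosen after seeing the data were 4 further settings. Against eTreg 0 members passed in the fit that dropped 3 arrays with few B cell transcripts (2 eTreg arrays left) and 0 with the macrophage marker mean as a covariate. Against e_iTreg 1 passed when those 3 arrays were dropped, 1 without the 3 arrays with 1 sex (against eTreg 2, Epas1 and, as lower, Il4ra), and 0 with the macrophage covariate. No member passed in e_iTreg minus eTreg in any of these settings. Fits with only the 2 groups compared and with a robust variance estimate were also run and are not itemized here. Over all settings other than leaving out 1 array, calls of members were kept 87 times and lost 27 times.

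Members past the threshold kept their sign in every setting. Signs turned only in differences that did not pass. Il1r2 in iTreg minus eTreg (0.07) was -0.42 when those arrays were dropped, -0.12 with the B cell covariate, -0.03 with the macrophage covariate and -0.27 to 0.35 without 1 array. The second Hif1a probe set (-0.03) was 0.01 with array weights, 0.11 and 0.09 when those arrays or the arrays with 1 sex were dropped, 0.06 with the macrophage covariate and -0.09 to 0.04 without 1 array. Gata3 in iTreg minus e_iTreg was -0.01 without the arrays with 1 sex and -0.03 with the macrophage covariate, and Il1r2 ran from -0.44 to 0.02 without 1 array. In e_iTreg minus eTreg, median centring gave Hif1a -0.01, Il17rb 0.00 and Epas1 -0.02. When the arrays low in B cell transcripts were dropped Il1r2 was -0.02 and Epas1 -0.08, and the B cell covariate gave Il17rb -0.02. Without 1 array the ranges were -0.04 to 0.58 for Il1r2, 0.00 to 0.10 for Hif1a, -0.18 to 0.27 for Il17rb, -0.10 to 0.19 for Epas1 and -0.18 to 0.04 for Il4ra. Il1rap in iTreg minus eTreg ran from 0.00 to 0.20. The cause of these changes was not tested.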
